A study of Mus musculus with 8 samples.

Results

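Interferon-stimulated genes and the genes of MHC class I antigen presentation were followed in bone marrow–derived mast cells (BMMCs), mast cells grown in vitro from mouse bone marrow. The list held 39 genes, chosen by symbol from the 24059 gene symbols counted, and all 39 were found. Of these, 32 are induced by interferon and 7 process or present peptides on MHC class I (*B2m*, *H2-K1*, *H2-D1*, *Tap1*, *Tap2*, *Psmb8* and *Psmb9*), and the 2 sets are described separately. The cells came from C57BL/6 mice of 6 to 8 wk of age and were kept in IL-3 for at least 4 wk. They were then electroporated with Cas9-gRNA ribonucleoproteins (RNPs) and cultured for a further 1 wk, without stimulation, before RNA was extracted. The 4 samples of *Zc3h12a* RNP, whose guides target the gene of the endoribonuclease Regnase-1, are labelled as knockout (Zc3h12a KO). The 4 samples of Scrambled RNP, with a non-targeting guide, are labelled Zc3h12a WT. Each *Zc3h12a* RNP sample is a transfected population, in which not every cell need carry an edit. The study's design names 4 mice, and samples with the same replicate number were compared as a pair, although the labels do not state that a number marks a mouse.

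Type I interferons signal through the receptor IFNAR to a complex that holds STAT2 and IRF9 and binds the interferon-stimulated response element (ISRE) in the promoters of target genes. Interferon gamma acts through the gamma-activated site (GAS) and through the transcription factor IRF1. The induced genes code for sensors of foreign nucleic acid, for enzymes that block viral RNA or translation, and for regulators that feed back on the pathway. The class I pathway is present in nearly all nucleated cells: the proteasome cuts proteins into peptides, TAP1 and TAP2 carry them into the endoplasmic reticulum, and heavy chains paired with beta-2 microglobulin display them at the surface. PSMB8 and PSMB9 replace the constitutive catalytic subunits PSMB5 and PSMB6 in the immunoproteasome, and interferon raises most of these genes too.

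The total count was 19610240 to 33986762 per sample, and 14934 genes passed the filter on low counts. *Zc3h12a* itself was at 34.8 ± 6.65 CPM (read counts scaled to the library size, with TMM normalization) in Scrambled RNP samples and at 33.2 ± 5.91 in *Zc3h12a* RNP samples (SD, n = 4), so its mRNA gives no check of the labels. All 12 mast cell markers were tested, with a summed level of 53444 to 65657 CPM. This sum was lower after *Zc3h12a* RNP in pairs 1, 2 and 4, most in 1 and 2, where it went from 65657 and 64330 to 53444 and 53634 CPM. Of 10 macrophage markers, 3 passed the filter, with 12.9 to 18.6 CPM for the whole list. Of 8 dendritic cell markers, 4 passed, with 3.60 to 32.5 CPM for the list. Summed levels were 0.602 to 2.71 CPM for 5 B cell markers, 1.13 to 6.33 CPM for 6 T and NK cell markers, and at most 0.333 CPM for the 4 neutrophil markers in the files. The part of other cells in the results below was not tested. In bulk RNA, fewer cells with a transcript and less of it per cell cannot be told apart.

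Exact letters of the interferon elements were found in promoters of some members of high and some of very low level, and not in others such as *H2-D1*, *H2-K1* and *Ifi44*. Sequences that depart from the searched letters were not counted, so a promoter without a match may still hold an element. A promoter window of 300 bases, from 250 before to 50 after the start of the gene, was at hand for 31 of the 39 genes (RefSeq windows of GRCm38.p6, each with 1 exact match in GRCm39, whose coordinates are given). Of these genes, 6 had more than 1 window, for different annotated starts. A gene was counted as holding a match if any of its windows did, so the shares below depend on the number of windows per gene. The stretches below are those of *B2m* and *Bst2*, the most abundant member with an ISRE core in each set, of *Isg15*, *Ifit1* and *Ifit3*, classical target genes with few reads here, and of *Irf1* and *Psmb8*, which hold a GAS. Capitals mark the core of the ISRE, GAAA and GAAA with any 2 bases between, or the GAS, TTCNNNGAA, read on either strand. Each stretch is written 5′ to 3′ on the strand of its gene, and matches that overlap each other run together in capitals.
*B2m*, chr2:121978004-121978063, plus strand: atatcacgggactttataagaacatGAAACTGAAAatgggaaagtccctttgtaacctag
*Bst2*, chr8:71990206-71990277, minus strand: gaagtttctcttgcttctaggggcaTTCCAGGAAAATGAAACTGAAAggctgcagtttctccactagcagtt
*Isg15*, chr4:156285307-156285378, minus strand: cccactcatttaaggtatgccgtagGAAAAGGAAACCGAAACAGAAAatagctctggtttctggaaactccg
*Ifit1*, chr19:34618160-34618238, plus strand: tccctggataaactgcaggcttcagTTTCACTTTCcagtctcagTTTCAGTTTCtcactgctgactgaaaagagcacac
*Ifit3*, chr19:34560748-34560841, plus strand: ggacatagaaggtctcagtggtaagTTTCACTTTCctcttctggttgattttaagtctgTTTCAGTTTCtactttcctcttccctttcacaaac
*Irf1*, chr11:53660726-53660784, plus strand: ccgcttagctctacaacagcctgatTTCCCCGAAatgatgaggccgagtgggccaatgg
*Psmb8*, chr17:34417047-34417105, plus strand: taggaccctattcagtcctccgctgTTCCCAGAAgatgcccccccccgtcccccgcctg

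The ISRE core of *B2m* began 139 bases upstream of the start and those of *Isg15* 78, 72 and 66 bases upstream, 3 overlapping copies in 1 run. In *Bst2*, 2 overlapping ISRE cores and a GAS shared 1 run of capitals. *Ifit1* and *Ifit3* held 2 separate cores each, on the opposite strand. Over all 27025 genes with a window, 3.99% held an ISRE core, and among the genes tested here with a window the share was 3.83%. Among the interferon-induced members, 12 of 25 (48%) held one, and among the class I members 1 of 6 (*B2m*). For the GAS the shares were 9.55% of all genes, 8.53% of tested genes, 8 of 25 interferon-induced members (32%) and 1 of 6 class I members (*Psmb8*). The ISRE core was found in 7 of 12 interferon-induced members below 1 CPM per kilobase of exon and in 5 of 13 at or above it. Of the former, *Ifit1* and *Ifit3* had 22 and 4 reads in all. No window was at hand for *Tap2*, *Parp9*, *Usp18*, *Parp14*, *Dhx58*, *Zbp1*, *Rtp4* and *Oas2*.

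**Figure D1:**
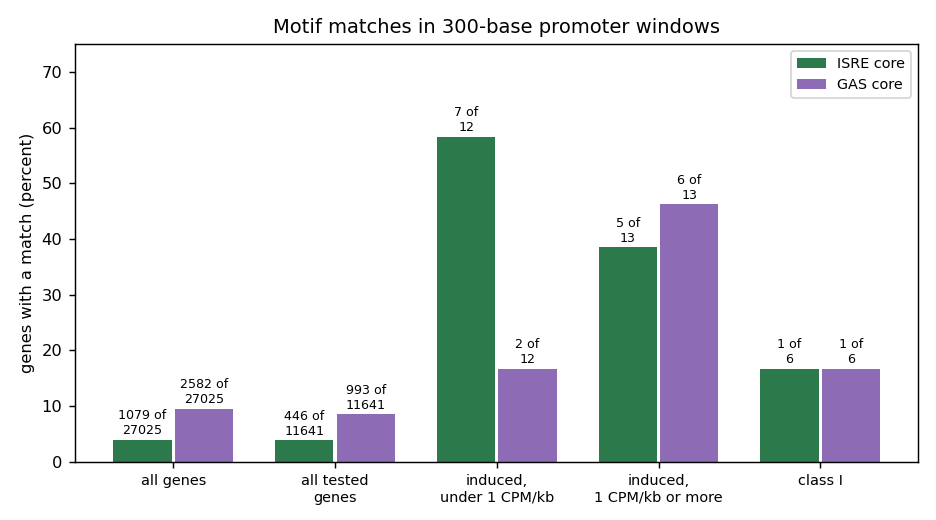
Share of genes, in percent, with a match to the ISRE core (green) or the GAS (purple) in the 300-base promoter window, for all genes, all tested genes, interferon-induced members below and at or above 1 CPM per kilobase, and class I members; counts stand over the bars. The interferon-induced members had ISRE matches at 7 of 12 and 5 of 13, against 3.99% of all genes.

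*Tap1* and *Psmb9*, a transporter and a proteasome subunit of 1 pathway, start from the same stretch of chromosome 17 in opposite directions. Their RefSeq starts lie 226 bases apart, and the sequence between and around them is shown on the plus strand, with the position of each gene's first base in capitals (*Psmb9* on the left, read leftwards, and *Tap1* on the right).
*Psmb9* and *Tap1*, chr17:34406280-34406555, plus strand: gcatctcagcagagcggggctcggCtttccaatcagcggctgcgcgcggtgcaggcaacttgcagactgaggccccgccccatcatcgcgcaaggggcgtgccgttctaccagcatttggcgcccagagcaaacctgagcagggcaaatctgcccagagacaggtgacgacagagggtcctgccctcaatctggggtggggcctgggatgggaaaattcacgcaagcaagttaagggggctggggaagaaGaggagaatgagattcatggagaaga

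With *Psmb8* and *Tap2* they form a block of 34.9 kilobases (chromosome 17, 34400960 to 34435829, GRCm39). The annotated genes *Tap1* and *Psmb9* overlap by 743 bases, and *Dtx3l* and *Parp9*, another pair in opposite directions, by 682 bases on chromosome 16. As the strand setting of the counting is not given in the sources used here, reads in these overlaps may not be assigned to 1 gene with certainty.

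Of the 7 class I genes, 5 were above 10 CPM per kilobase of exon in resting BMMCs and 2 were between 1 and 10. The interferon-induced genes ranged from above 10 to almost no reads. The level of a gene is given per kilobase of its annotated exons, as the mean over all 8 samples. This length joins the exons of all annotated transcripts and can far exceed the longest protein-coding transcript. It was 6007 against 3105 bases for *Tap1* and 7989 against 1911 for *Oas1a*. Orders, bands and ratios between genes, and the split at 1 CPM per kilobase, depend on this choice of length. *B2m* was at 303 CPM per kilobase, above 99.4% of the genes tested, *H2-D1* at 216 (99.1%) and *H2-K1* at 94.8. *Tap2* was at 40.9, *Psmb8* at 18.1, *Tap1* at 5.70 and *Psmb9* at 3.24. All 7 class I genes were above the median of tested genes, which was 2.53. Each of *B2m*, *H2-D1*, *H2-K1* and *Tap2* was above the next gene in this order in 8 of 8 samples.

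Of the interferon-induced genes, 13 of 32 were above that median. *Bst2*, which codes for tetherin, an anchor of enveloped virions to the cell surface, was the highest at 19.5 CPM per kilobase, followed by *Eif2ak2*, the gene of the kinase PKR, at 10.5. Between 1 and 10 lay 14 genes, among them *Dtx3l* (8.55), *Samhd1* (7.63), *Trim25* (6.48), *Irf9* (4.12), *Stat2* (4.02) and *Isg15* (1.32). Neighbours in this order were often not apart: *Dtx3l* was above *Samhd1* in 5 of 8 samples, and *Irf9* above *Stat2* in 4 of 8. Another 9 genes were between 0.1 and 1, from *Gbp3* (0.954) to *Ifit2* (0.283). The last 7 were below 0.1: *Oas3*, *Zbp1*, *Rtp4*, *Ifit1*, *Oas2*, *Ifit3* and *Ifi44*. Of all tested genes, 22.1% were above 10 CPM per kilobase, 42.5% from 1 to 10, 30.6% from 0.1 to 1 and 4.76% below 0.1. The summed level was 1638 to 2259 CPM for the 7 class I genes and 398 to 506 CPM for the 32 interferon-induced genes, so that the class I genes held 77.0% to 82.6% of the reads of the list in every sample.

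**Figure D2:**
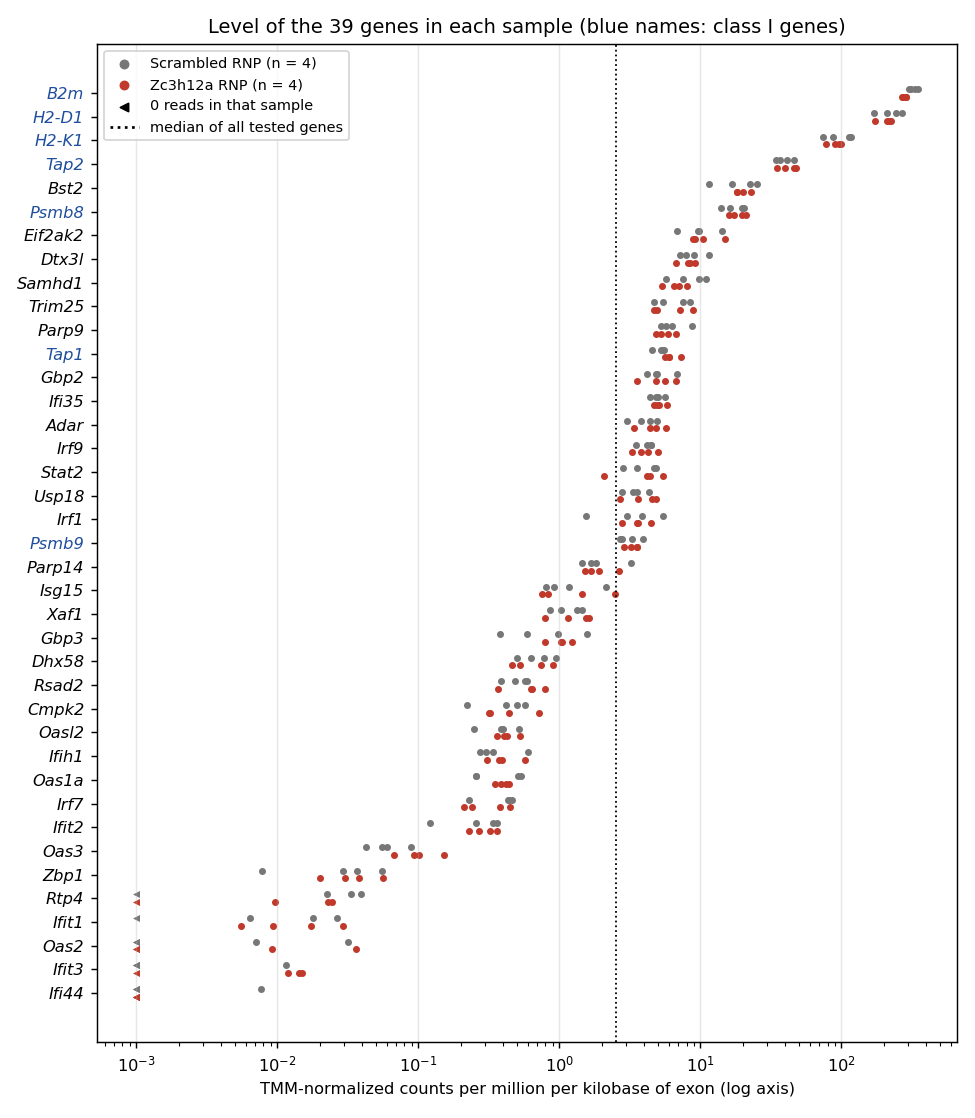
Level of each of the 39 genes in each sample, in TMM-normalized CPM per kilobase of exon on a log axis, ordered by the mean; grey points are Scrambled RNP and red points *Zc3h12a* RNP samples (n = 4 each), triangles at the left edge mark samples with 0 reads, and the dotted line is the median of tested genes (2.53). The class I genes (blue names) *B2m* (303), *H2-D1*, *H2-K1* and *Tap2* are at the top. The other class I genes lie among interferon-induced genes, down to *Psmb9* at 3.24, and the 7 genes at the bottom are below 0.1.

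The question of the comparison was whether targeting of *Zc3h12a* changed these genes in resting cells. No member was called, which required a log2 fold change past 0.5 up or down together with an adjusted p of at most 0.05. Of the 39 genes, 33 passed the filter and were tested, 26 interferon-induced and all 7 class I genes. With replicate number as a block, edgeR's quasi-likelihood test called 0 members higher and 0 lower, where 0% of all 14934 genes were called higher and 0% lower. DESeq2 called 0 members, beside 8 genes higher and 52 lower over all genes, and limma-trend 0 members, beside 0 and 1. At an unadjusted p at or under 0.05, 1 member was higher (*Tap1*; 2.12% of all genes) and 2 were lower (*Samhd1* and *B2m*; 4.05% of all genes). The lowest adjusted p of any member was 0.686.

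The interferon-induced genes did not move in 1 direction. Their log2 fold changes were positive in 16 and negative in 10 of 26 tested genes and ran from -0.31 (*Samhd1*) to 0.72 (*Oas3*). The median was 0.09, beside 0.04 over all genes tested. The median difference in pairs 1 to 4 was -0.14, 0.06, 0.09 and 0.12. Of the class I genes, 4 had a positive and 3 a negative log2 fold change, from -0.20 (*B2m*) to 0.27 (*Tap1*), with a median of 0.07. All members but *Oas3* stayed within 0.5 in either direction, as did all but 2065 of the 14934 genes. Higher in all 4 pairs were *Tap1* and *Oas3* (4.98% of all genes), and lower in all 4 were *B2m* and *Samhd1* (8.54% of all genes). *Tap1* was the member whose *Zc3h12a* RNP samples all lay above the Scrambled RNP samples (0.261% of all genes), and *B2m* the one whose samples all lay below (0.663% of all genes). The last 2 counts are of 1 gene each, out of 33.

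**Figure D3:**
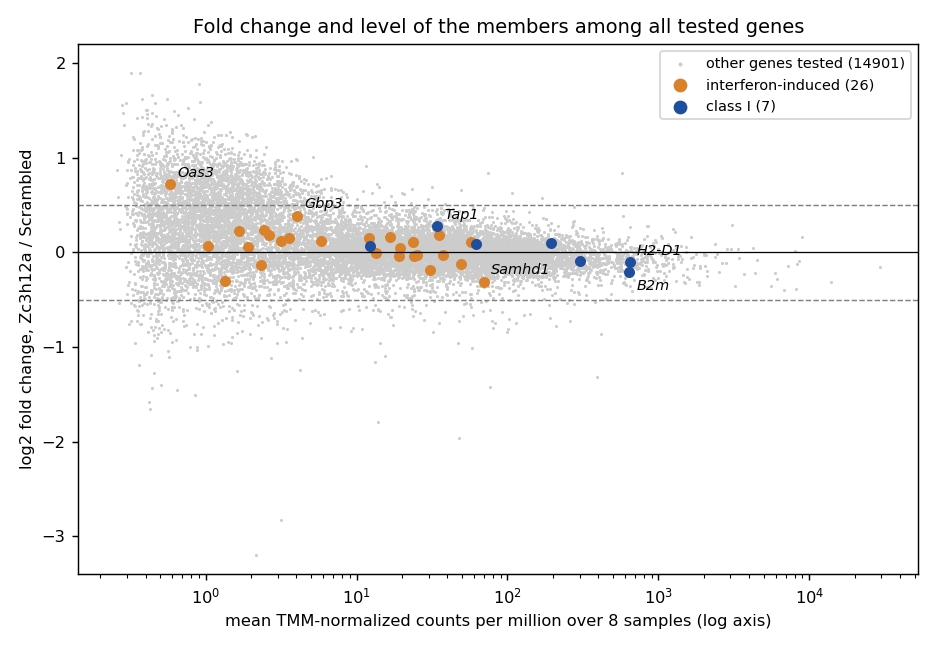
Log2 fold change (*Zc3h12a* RNP over Scrambled RNP) against the mean level in TMM-normalized CPM (log axis) for all 14934 tested genes (grey), with the 26 interferon-induced (orange) and 7 class I genes (blue) on top; dashed lines mark a log2 fold change of 0.5 in either direction. The members lie within the cloud of other genes, and *Oas3*, at a low level, is the one beyond a dashed line.

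Fitted log2 fold changes were positive for *Tap1* and *Tap2* and negative for *B2m*, *H2-D1* and *H2-K1*, and none of these genes was called. Those of *Tap2*, *H2-D1* and *H2-K1* were about the size of their standard errors, so their signs are not settled. *B2m* (chromosome 2, 121977957 to 121983594, plus strand), the light chain shared by all class I molecules, was at 635, 742, 700.0 and 657 CPM in Scrambled RNP samples 1 to 4 and at 608, 572, 611 and 579 CPM in *Zc3h12a* RNP samples 1 to 4. Every Scrambled RNP sample was above every *Zc3h12a* RNP sample, and the largest difference was in pair 2. The log2 fold change was -0.20 ± 0.08 (SE; unadjusted p = 0.0414 and adjusted p = 0.772 by edgeR's quasi-likelihood test). It was -0.08 without replicate 2. The heavy chains *H2-D1* and *H2-K1* had log2 fold changes of -0.10 and -0.09 and did not reach an unadjusted p of 0.05, and their groups overlapped. In pairs 1 to 4, *H2-D1* differed by -0.16, -0.27, -0.0047 and 0.02, and *H2-K1* by -0.19, -0.29, 0.05 and 0.08, so both were lower in pairs 1 and 2 without a shared direction in the others. *H2-D1* ranged from 510 to 812 CPM in Scrambled RNP and from 517 to 674 CPM in *Zc3h12a* RNP samples, and *H2-K1* from 237 to 374 and from 250 to 317 CPM. The ratio of *H2-D1* to *H2-K1*, per kilobase, stayed between 2.16 and 2.41 in all samples.

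*Tap1* (chromosome 17, 34405996 to 34416199, plus strand), which forms the peptide transporter with TAP2, was at 33.1, 32.1, 31.5 and 27.3 CPM in Scrambled RNP samples and at 44.3, 36.1, 33.8 and 36 CPM in *Zc3h12a* RNP samples. The groups did not overlap, although the highest Scrambled RNP sample and the lowest *Zc3h12a* RNP sample were 33.1 and 33.8 CPM. The log2 fold change was 0.27 (SE 0.09; unadjusted p = 0.0166 and adjusted p = 0.686 by edgeR). The differences in pairs 1 to 4 were 0.42, 0.17, 0.10 and 0.40. *Tap2* was at 195, 220, 175 and 164 CPM in Scrambled RNP samples and at 228, 221, 167 and 190 CPM in *Zc3h12a* RNP samples, and the groups overlapped (log2 fold change 0.09, SE 0.09). Per kilobase, *Tap2* was 7.67 ± 0.685 times as high as *Tap1* in Scrambled RNP and 6.77 ± 0.649 times in *Zc3h12a* RNP samples (SD, n = 4). The size of this ratio depends on the exon lengths used. This ratio was lower in 4 of 4 pairs, for which an exact two-sided sign-flip permutation test gave p = 0.125, the smallest that 4 pairs allow, and 0.5 after adjustment over the 4 ratios tested.

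Both immunoproteasome subunits had small positive log2 fold changes, within their standard errors, and each was higher in 3 of 4 pairs. *Psmb8*, in the same block as *Tap1*, was at 69.9, 68.1, 55.2 and 47.8 CPM in Scrambled RNP samples and at 71.7, 59.7, 68.1 and 54.8 CPM in *Zc3h12a* RNP samples (log2 fold change 0.09, SE 0.10). *Psmb9*, which starts 226 bases from *Tap1*, ranged from 10.2 to 14.9 and from 10.9 to 13.5 CPM (log2 fold change 0.07, SE 0.15). Its differences in pairs 1 to 4 were 0.40, 0.22, 0.12 and -0.46, so *Psmb9* was higher where *Tap1* was in 3 of 4 pairs. *Psmb5*, the constitutive counterpart of *Psmb8*, was at 44.8 ± 15.1 and 50.7 ± 8.31 CPM, and *Psmb6*, the counterpart of *Psmb9*, at 112 ± 30.1 and 110.5 ± 24 CPM (SD, n = 4). Before division by length, *Psmb8* was above *Psmb5*, with means over all samples of 61.9 and 47.7 CPM. Per kilobase, *Psmb8* was at 0.584 to 0.940 of the level of *Psmb5*, and *Psmb9* at 0.0435 to 0.123 of that of *Psmb6*. By these exon lengths, the interferon-inducible subunit was thus below its counterpart in both ratios, and much further below it in the second. Each of these ratios was higher in 2 pairs and lower in 2 (exact two-sided sign-flip permutation test, p = 0.5 and 1, adjusted p = 0.833 and 1), and that of *H2-D1* to *H2-K1* gave p = 0.625 (adjusted p = 0.833 in the same exact test); with 4 pairs no ratio could have reached 0.05.

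**Figure D4:**
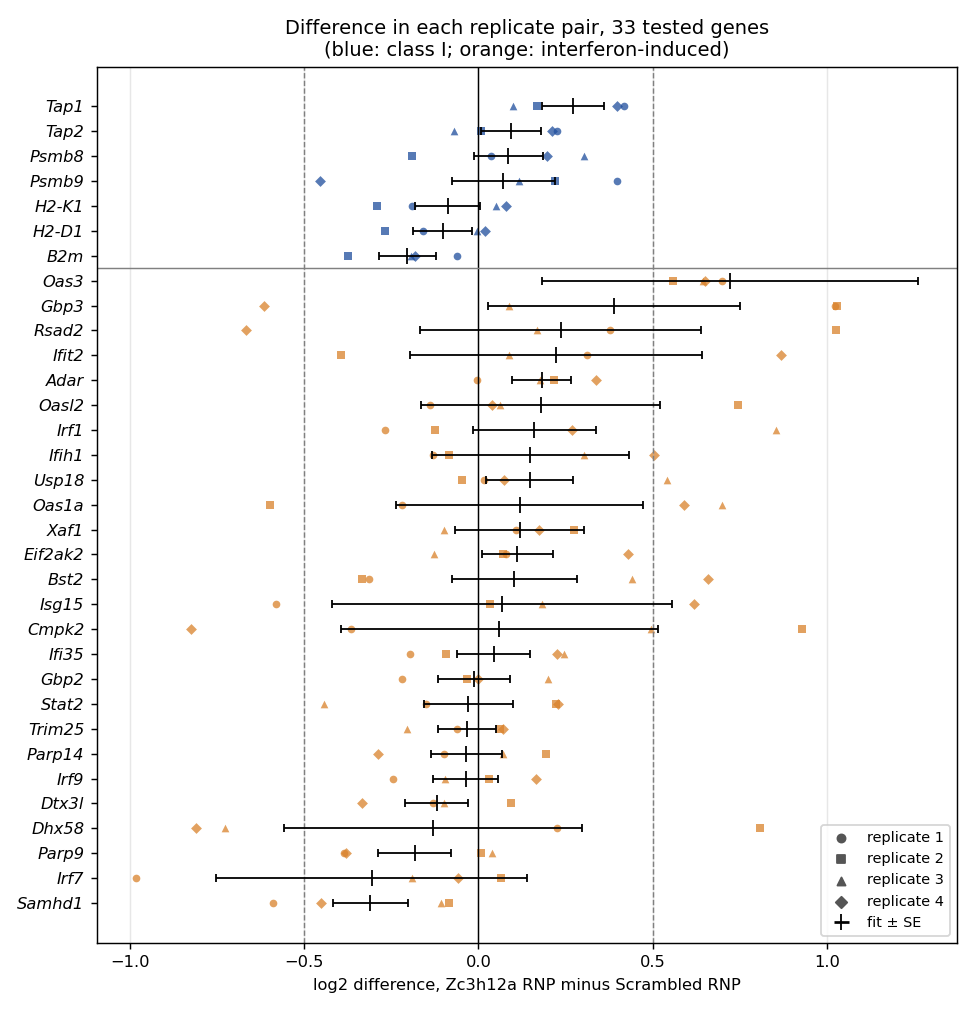
Log2 difference between *Zc3h12a* RNP and Scrambled RNP in each replicate pair (symbols) with the fitted log2 fold change and its standard error (black), for the 7 class I (blue) and 26 interferon-induced genes (orange); dashed lines mark 0.5 in either direction. *Tap1* and *Oas3* have all 4 pairs above 0, *B2m* and *Samhd1* all 4 below, and the pairs of most other genes lie on both sides.

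Among the transcription factors, *Irf9* and *Irf1* are described as the most abundant and the one with the lowest p. *Irf9*, the DNA-binding subunit of the type I interferon complex, was at 26.1, 24.2, 20.4 and 25.8 CPM in Scrambled RNP samples and at 22, 24.7, 19.1 and 28.9 CPM in *Zc3h12a* RNP samples. The groups overlapped (log2 fold change -0.04, SE 0.09). *Irf1*, which drives many genes of the interferon gamma response, was at 25.4, 18.1, 7.21 and 14.1 CPM in Scrambled RNP samples and at 21.1, 16.6, 13.1 and 17 CPM in *Zc3h12a* RNP samples. It was lowest in replicate 3 of both groups, and its log2 fold change was 0.16 (SE 0.18). The log2 fold change was -0.03 for *Stat2*, which acts with IRF9, and -0.31 (SE 0.45) for *Irf7*, the factor that amplifies interferon production, which had 21 to 52 reads per sample.

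Of the members that act in sensing, the ligase *Trim25* was the most abundant and the sensors *Ifih1* and *Dhx58* were low. Of sensors outside the member list, *Ddx58* (RIG-I) had 438 to 1069 reads per sample, and *Cgas* 207 to 597 with a mean of 3.17 CPM per kilobase. *Trim25*, a ubiquitin ligase of the RIG-I pathway, was at 43.2, 48.9, 31.1 and 27.1 CPM in Scrambled RNP samples and at 41.4, 51.1, 27.0 and 28.4 CPM in *Zc3h12a* RNP samples. Both groups were high in replicates 1 and 2 and low in 3 and 4, and the log2 fold change was -0.03 (SE 0.08). *Ifih1*, which codes for MDA5, a sensor of long double-stranded RNA, was at 3.04, 5.43, 2.72 and 2.47 CPM against 2.77, 5.11, 3.37 and 3.54 CPM (log2 fold change 0.15, SE 0.28). Replicate 2 was the highest of both groups for this gene. *Dhx58*, which codes for the related protein LGP2, had 38 to 72 reads per sample (log2 fold change -0.13, SE 0.43).

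The ubiquitin-like modifier and its protease differed in level. *Usp18*, the protease that removes ISG15 and also dampens signalling at IFNAR, was at 11.6, 9, 10.9 and 14.0 CPM in Scrambled RNP samples and at 11.8, 8.71, 15.8 and 14.8 CPM in *Zc3h12a* RNP samples. The groups overlapped (log2 fold change 0.15, SE 0.12). *Isg15* itself had 15 to 43 and 15 to 47 reads per sample, and its most reads in both groups in replicate 3 (log2 fold change 0.07, SE 0.49). Among the IFIT proteins, which bind viral RNA, *Ifit2* alone passed the filter. It was at 1.52, 2.13, 2.01 and 0.714 CPM in Scrambled RNP samples and at 1.91, 1.60, 2.14 and 1.36 CPM in *Zc3h12a* RNP samples (log2 fold change 0.22, SE 0.42).

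The oligoadenylate synthetases make the second messenger that activates RNase L, and the 3 tested members of this family had positive log2 fold changes. Outside the member list, *Oas1b* and *Oas1c* had negative ones (-0.11 and -0.30) and *Oasl1* a positive one (0.31), with adjusted p from 0.960 to 0.979 in edgeR's test. *Oas3* (chromosome 5, 120891163 to 120915729, minus strand) was at 0.634, 0.300, 0.394 and 0.428 CPM in Scrambled RNP samples and at 1.07, 0.477, 0.658 and 0.714 CPM in *Zc3h12a* RNP samples. These values are 9 to 20 and 11 to 31 reads. The differences were 0.70, 0.56, 0.65 and 0.65 in pairs 1 to 4, of nearly equal size, and the fit gave 0.72 ± 0.54 (SE; unadjusted p = 0.22 and adjusted p = 0.960 by edgeR). *Oasl2*, a related gene, was at 2.57, 1.60, 2.48 and 3.28 CPM against 2.32, 2.73, 2.59 and 3.38 CPM (log2 fold change 0.18, SE 0.34). The log2 fold change of *Oas1a* was 0.12, and 56.8% of its transcript's 50-base windows also occur in *Oas1g*, so reads of these paralogs may not be told apart.

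*Samhd1* (chromosome 2, 156939453 to 156977187, minus strand) had the lowest unadjusted p of the interferon-induced genes. It codes for a triphosphohydrolase that lowers the pool of deoxynucleotides. It was at 89.7, 52.1, 69.2 and 101 CPM in Scrambled RNP samples and at 59.5, 49.1, 64.3 and 73.8 CPM in *Zc3h12a* RNP samples. It was lower in all 4 pairs, most in 1 and 4, where the Scrambled RNP samples were the highest, and the groups overlapped. The log2 fold change was -0.31 (SE 0.11; unadjusted p = 0.0216 and adjusted p = 0.686 by edgeR), and it was -0.17 without replicate 1. *Eif2ak2*, whose product PKR stops translation on double-stranded RNA, was at 53.6, 77.8, 52.4 and 37.0 CPM against 56.6, 81.6, 48.0 and 49.8 CPM, highest in replicate 2 of both groups (log2 fold change 0.11, SE 0.10). *Adar*, which edits adenosine in double-stranded RNA, ranged from 24.6 to 39.9 and from 27.8 to 46.3 CPM (log2 fold change 0.18, SE 0.09). *Rsad2*, the gene of viperin, and its neighbour *Cmpk2*, a nucleotide kinase, had 49 to 80 and 29 to 75 reads per sample, with log2 fold changes of 0.24 and 0.06.

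At the membrane, *Bst2* was at 27.4, 30.8, 20.6 and 14.1 CPM in Scrambled RNP samples and at 22, 24.4, 27.9 and 22.3 CPM in *Zc3h12a* RNP samples. It was lower after *Zc3h12a* RNP in pairs 1 and 2 and higher in pairs 3 and 4 (log2 fold change 0.10, SE 0.18). *Gbp3*, a guanylate-binding GTPase that acts on the vacuoles of pathogens, was at 1.62, 2.53, 4.17 and 6.71 CPM in Scrambled RNP samples and at 3.36, 5.24, 4.44 and 4.35 CPM in *Zc3h12a* RNP samples. Its Scrambled RNP samples spanned the whole range of the other group (log2 fold change 0.39, SE 0.36). For *Gbp2*, of the same family, the log2 fold change was -0.01 (SE 0.10).

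The complex of PARP9 and DTX3L, which joins ADP-ribosylation to ubiquitin transfer, and the related *Parp14* all had negative log2 fold changes. *Dtx3l* was at 51.5, 45.7, 41.2 and 66.5 CPM in Scrambled RNP samples and at 47.0, 48.8, 38.4 and 52.7 CPM in *Zc3h12a* RNP samples (log2 fold change -0.12, SE 0.09). *Parp9* was at 31.9, 26.4, 28.7 and 43.9 CPM against 24.4, 26.5, 29.5 and 33.7 CPM (log2 fold change -0.18, SE 0.10). Both were highest in replicate 4 of each group, and their groups overlapped. *Parp14* had a log2 fold change of -0.03. Of the remaining genes, *Ifi35* was at 21.7, 19.2, 18.6 and 16.8 CPM against 18.9, 18, 22.1 and 19.6 CPM (log2 fold change 0.04, SE 0.10). *Xaf1*, an antagonist of inhibitors of apoptosis, was at 6.85, 6.40, 4.06 and 4.85 CPM against 7.39, 7.76, 3.78 and 5.49 CPM (log2 fold change 0.12, SE 0.19).

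The members with the fewest reads, 6 interferon-induced genes, did not pass the filter and were not tested. Over all 8 samples together, *Zbp1* had 31 reads, *Ifit1* 22, *Rtp4* 18, *Oas2* 10, *Ifit3* 4 and *Ifi44* 1. *Zbp1* had 1 to 7 reads in every sample, and the other 5 had 0 reads in at least 1 sample. *Ifi44* had its single read in replicate 4 of Scrambled RNP. A count of 0 allows up to 3 reads, which is 0.0883 to 0.153 CPM at these depths and covers counting error only. For *Ifit3* and *Rtp4*, 32.9% and 24.1% of the transcript's 50-base windows also occur in another gene (*Ifit3b* and *Gm45338*), so reads from them may have been left out or divided by the counting.

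At an adjusted p of at most 0.05 alone, more members differed between replicate numbers than between the RNPs, and so did more of all genes. Between the 4 replicate numbers, 8 of 26 interferon-induced genes (30.8%) and 1 of 7 class I genes (14.3%) differed (adjusted p of at most 0.05, edgeR's F test of the replicate terms), beside 28.0% of all genes. For the interferon-induced genes this count was 2, 5, 4 and 5 without replicates 1, 2, 3 and 4. The interferon-induced genes were *Trim25*, *Parp14*, *Eif2ak2*, *Stat2*, *Adar*, *Gbp2*, *Samhd1* and *Irf1*, and the class I gene was *H2-D1*, with an adjusted p of 0.0470, and was not called under any of the 9 alternatives run for this test. They did not share 1 order: *Trim25*, *Stat2*, *Eif2ak2* and *Adar* were highest in replicate 1 or 2 of each group, while *Parp14* and *Gbp2* were highest in replicate 4. *Stat2* went from 30.7 and 29.7 CPM in replicates 1 and 2 to 17.9 in replicate 3 of Scrambled RNP, and from 27.6 and 34.6 to 13.1 CPM in *Zc3h12a* RNP. *Parp14* was at 31.1 CPM in replicate 4 and 13.9 to 17.4 in the others of Scrambled RNP, and at 25.4 and 14.6 to 18.4 CPM in *Zc3h12a* RNP. The labels do not say whether a replicate number stands for a mouse, a culture or a day of preparation, so these cannot be told apart.

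**Figure D5:**
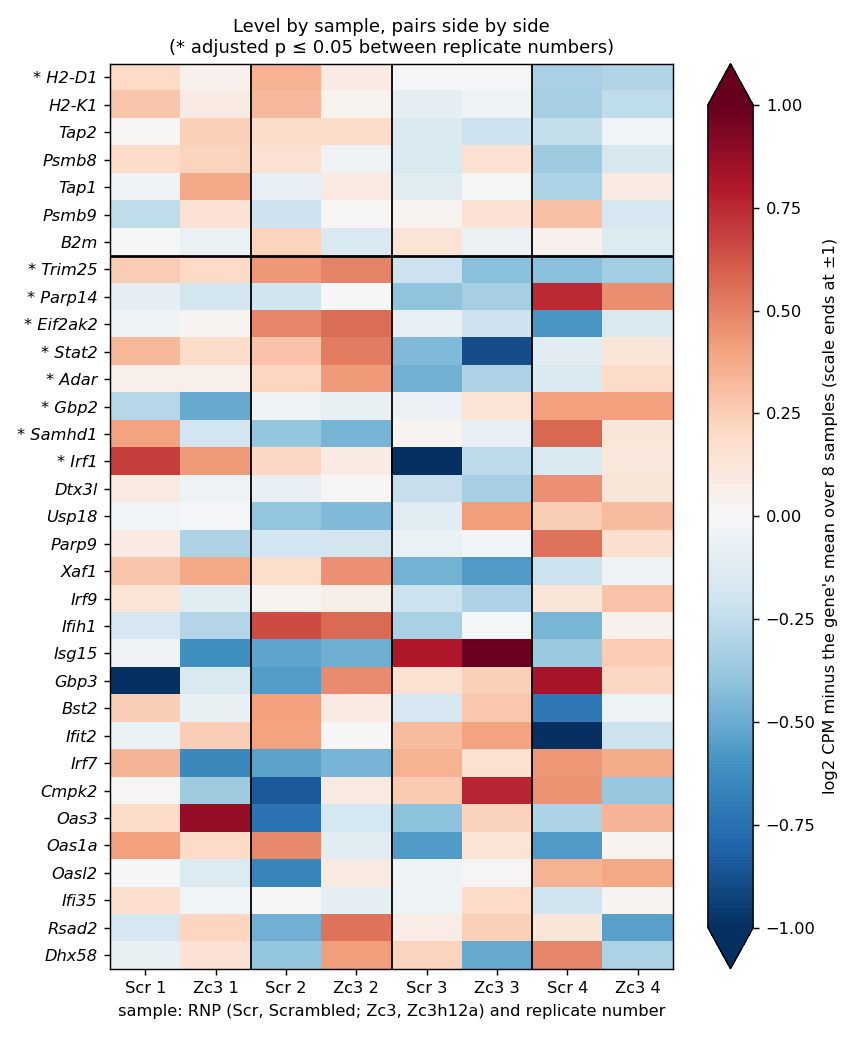
Level of the 33 tested genes in each sample as log2 CPM minus the gene's mean over 8 samples (red above, blue below), with the 2 samples of a replicate number side by side and class I genes above the thick line; asterisks mark genes that differ between replicate numbers at an adjusted p at or under 0.05. Samples of a number share colour for *Trim25* in every number, and for *Stat2* and *Eif2ak2* in all but 1 number each. No class I or interferon-induced block turns from 1 colour to the other between the RNPs.

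Reads of genes that belong to other tissues differed between samples, and the members of low level did not share 1 direction with them. The summed CPM of 749 olfactory receptor genes was 198, 130, 347 and 510 in Scrambled RNP samples 1 to 4 and 246, 383, 347 and 237 in *Zc3h12a* RNP samples 1 to 4. On the log2 scale this is a difference of 1.56 in pair 2 and -1.11 in pair 4, and the dendritic cell markers differed by 2.64 and -1.34. *Gbp3*, *Dhx58*, *Rsad2*, *Cmpk2* and *Irf7* were also higher in pair 2 and lower in pair 4, 5 of the 10 tested members below 1 CPM per kilobase, as were 4 of the 23 at or above it and 36% of all tested genes. *Ifit2*, *Oas1a* and *Ifih1* went the opposite way in both pairs, and *Oas3* and *Oasl2* were higher in both. The part of this signal in the values of the low genes was not tested. The median standard error of the log2 fold change was 0.41 for the 10 low members and 0.10 for the other 23.

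Further genes of the pathway were read from lists of 106 symbols, of which 98 were in the files and 80 were tested. In edgeR's quasi-likelihood test 0 of them were called, 0 were higher and 3 lower at an unadjusted p of at most 0.05, and positive and negative log2 fold changes were about equal in number (38 and 42). The 3 were *H2-T24*, a non-classical class I gene (-0.46, SE 0.11, adjusted p = 0.480), *Cd274*, which codes for PD-L1 (-0.41), and *Ptpn2*, a phosphatase that acts on JAK and STAT proteins (-0.22). Of 8 interferon genes on these lists, 3 were in the files: *Ifna2* had 4 and *Ifna4* had 2 reads over all samples and *Ifng* had 0. *Ifnb1* was not analysed here. All 7 receptors and kinases were tested, with log2 fold changes from -0.10 to 0.09. *Ifnar1*, a chain of the type I receptor, was at 41.8 ± 4.18 and 41.7 ± 3.70 CPM, and *Ifngr1*, of the interferon gamma receptor, at 17.7 ± 2.03 and 16.8 ± 0.820 CPM (SD, n = 4). Resting BMMCs thus had reads of both receptors and almost none of these 3 interferon genes.

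Of 34 tested further interferon-induced genes, 18 had a positive and 16 a negative log2 fold change, and of 15 tested further class I genes, 6 and 9. *Nlrc5*, the transactivator of class I genes, had 6 to 21 reads per sample in Scrambled RNP and 19 to 24 in *Zc3h12a* RNP samples, for a fitted log2 fold change of 1.01 ± 0.62 (SE; edgeR adjusted p = 0.960). It was higher in all 4 pairs, while the heavy chains and *B2m* had negative log2 fold changes. Of 7 genes of class II presentation, 5 were tested and 0 called by edgeR (0 at an unadjusted p of at most 0.05). Their log2 fold changes ran from -1.44 to 0.49, with 1 positive and 4 negative. Of these, 2 were past 0.5 in size, as were 2065 of the 14934 genes tested. The lowest unadjusted p of the 5 was 0.0941 in edgeR's test. *Cd74*, the invariant chain, had 5 to 16 reads per sample, *H2-Aa* 0 to 3 and *H2-Eb1* 0 to 4, while *H2-Ab1* was at 2.95 to 11.8 CPM. *Ciita*, the class II transactivator, had 97 reads over all samples. Of the genes of the peptide exchange factor H2-DM, *H2-DMa* was at 6.10 to 9.83 CPM and *H2-DMb1* at 21.4 to 35.9 CPM. Per kilobase their mean levels were 1.89 and 16.6 CPM, beside 2.23 for *H2-Ab1*.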

How the data were processed

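RNA of 8 BMMC samples (4 Scrambled RNP, 4 *Zc3h12a* RNP) was enriched for poly(A) and sequenced in paired reads of 50 bases. The authors deposited whole-number counts of reads per gene symbol, not normalized. The submitters' processing notes list FastQC 0.11.9, HISAT2 2.2.1, featureCounts 2.0.1 and GRCm39. The strand setting and the handling of multi-mapped reads are not given in the sources used here. The study's methods name a batch correction. Whether the deposited whole-number counts carry it was not tested.

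From the counts, genes were filtered with filterByExpr (minimum count 10), scaled by TMM and tested with edgeR 4.0.16 (glmQLFit, glmQLFTest; R 4.3.3) with the replicate number as a block; p-values were adjusted by Benjamini-Hochberg over all genes tested. Standard errors are the log2 fold change over the square root of F. Log2 differences per pair used a prior count of 2. GENCODE gave exon lengths and positions on GRCm39. The test was run on simulated counts with known changes and no differences between replicate numbers. That run does not measure its power for differences as small as those of most members. DESeq2 1.42.0, limma-trend (limma 3.58.1), other scalings, filters, no block and leaving out each replicate were alternatives.

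The pairing rests on the shared replicate numbers and the study's design of 4 mice; over the 9668 genes with a mean log2 CPM above 2, deviations of same-numbered samples correlated at 0.756, 0.717, 0.728 and 0.719, and others at most at 0.137, while over all genes tested they were 0.595, 0.0752, 0.624 and 0.0414, with others up to 0.398. Within a group, every 2 samples differed by more than counting noise (chi-square over degrees of freedom at least 53.6). Values per sample are given for the most abundant member per kilobase of each role group and for the one with the lowest p. The values of 1 gene of the pathway lists are not reported here. The members, lists and tests were chosen with earlier results of these data known. Figures were drawn with matplotlib in Python.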

Additional observations from a re-analysis of the deposited data

Results flagged for a closer look

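Of 52 groups of 4 samples examined (the CPM of the 20 genes described per sample, 2 sums and 4 ratios, in both RNP groups), 1 held a sample that stood apart, and chance alone marks about 2.6 of that many (1 in 20). The level of *Psmb9* relative to *Psmb6*, per kilobase, was 0.0834 in replicate 4 of *Zc3h12a* RNP and 0.0624 in the nearest of the other 3 samples of that group. This gap was 0.961 of the range of the group, above Dixon's 95% critical value for 4 samples. In the same replicate of Scrambled RNP the ratio was 0.123, the highest of all samples. *Psmb6* was lowest in replicate 4 of both groups, at 70.1 CPM in Scrambled RNP and 75.3 CPM in *Zc3h12a* RNP.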

How the results depend on the processing

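No interferon-induced or class I member passed both thresholds under any of the 11 alternatives, the fit with no replicate block included (0 members). Of 219 values of the 20 genes described per sample, 207 kept the sign and 12, all of uncalled genes, took the other; none crossed the thresholds, and the adjusted p ran from 0.454 (*Tap1*, library totals only) to 1. With no replicate block, 0 members had an unadjusted p at or under 0.05, against 3 with it. Over all genes, none was called with no replicate block. Higher calls were 8 with DESeq2 and 9 with no low-count filter; lower calls were 52 and 31, 1 with limma-trend, 1 with RLE size factors and 3 with at least 10 counts in every sample. Leaving out a replicate gave 0 to 80 higher and 0 to 57 lower calls, the most without replicate 2, and median log2 fold changes of -0.034 to 0.19 for interferon-induced and -0.04 to 0.08 for class I genes, negative without replicate 3; the cause was not tested. Of interferon-induced genes, 8 differed between replicate numbers, and 12 with library totals, 11 with the stricter filter, 9 with limma-trend, 6 with no filter, 5 with RLE size factors and 2 to 5 without 1 replicate. *H2-D1* was no longer called between replicate numbers (0 class I genes) with limma-trend, RLE, library totals, no filter, the stricter filter or without any 1 replicate. Scaling by library totals put the median of all genes at 0.11, and those of the interferon-induced and class I genes at 0.15 and 0.14.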
